A study of Gallus gallus with 2 samples.

Results

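The connective tissue of the ileal wall was followed through 56 genes of fibroblasts and the extracellular matrix, out of 13008 genes named on the array. They were chosen by name for their known roles, but with earlier results of these data known, so the list is no independent evidence of its direction. The genes fall into 8 classes, which are fibrillar collagens (5 genes), fibril-associated and beaded collagens (5), basement membrane (12), elastic fibre (7), proteoglycans (5), adhesive and matricellular proteins (9), collagen maturation and remodelling (9), and fibroblast surface and cytoskeleton (4). All 56 were measured, 55 under their current symbol and CTGF under its newer name CCN2.

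Fibroblasts of the lamina propria and submucosa secrete most of the interstitial matrix. Collagens I, III and V assemble into the fibrils that give the gut wall its tensile strength, and fibrillins and elastin form the fibres that let it recoil after stretch. Beneath the epithelium and around vessels, muscle and nerve, laminins, collagen IV, nidogens and perlecan form the sheet called the basement membrane. Newly made collagen is folded, hydroxylated and crosslinked by dedicated enzymes, and matrix metalloproteinases with their inhibitors control its breakdown.

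The control array held ileal RNA pooled from 3 male White Leghorn chickens on a corn-based diet, and the other array held RNA pooled from 3 such chickens on a paddy rice-based diet. Each diet contained 650 g/kg of its grain and was eaten from 1 wk of age for 2 wk by groups of 9 individually caged birds, so that all tissue was taken at 3 wk of age. The birds pooled were those whose ileal MUC2 level was near the average of the group, and the diets differed in crude protein and energy as well as in grain. The segments were cut from the flushed small intestine next to the ceca. The study calls the material mucosa in its title, but its methods state no separation of mucosa and muscle.

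Every ratio is paddy rice over corn in MAS5 signal, and signals are given with corn first, where a MAS5 signal is the scaled brightness of a probe set, a group of short probes that reads 1 transcript. A gene takes the value of its brightest probe set. With 1 array per diet there was no replicate error and no test, and the number of arrays limits the precision. Since ratios scatter more at low signals, genes are called bright when their mean signal reached the 75th percentile of chicken probe sets (522), dim when it was under the median (111), and of middle signal in between. The only spread at hand was that between probe sets of the same gene. Among bright probe sets the SD of log2 ratios was 0.16 over 1663 genes and 0.070 over 12 of the genes studied here, and among all that were not dim it was 0.27 over 4028 genes and 0.23 over 24. RNA quality was alike, with a 3' over 5' signal of ACTB of 1.51 and 1.52 on the corn and the paddy rice array. Of the epithelium markers 11 of 15 were measured and all were bright, among them FABP6, the ileal bile acid binding protein. Of the smooth muscle markers 12 of 15 were measured and 10 were bright.

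Most matrix genes had slightly higher signals on paddy rice, and few passed the thresholds of 1.5 and 0.67 used in the study. Of the 56 genes, 39 had a ratio above 1 and 17 a ratio below 1, against 49.5% of all named genes above 1. The median log2 ratio was 0.081, a ratio of 1.06, against -0.0029 over all named genes. Only FBN1 was above 1.5, where 8.27% of all named genes were, and only THY1 and LOX were below 0.67, where 8.57% were. These shares are 1076 and 1115 of the 13008 genes. Of the 1115 below 0.67, 957 were dim, whereas 53 of the 56 genes were not dim. Of these 53, 1 was above 1.5 and 1 below 0.67, beside 1.87% and 1.71% of all genes that were not dim. Few genes past a threshold was therefore not particular to the matrix genes. The study reported far fewer genes past the same thresholds, although its methods state no further filter. The counts given here are therefore not the calls of the study. These bulk arrays cannot tell fewer cells of a type from less RNA per cell.

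The same direction was seen among bright genes, where ratios scatter least. Of 43 bright genes, 33 had a ratio above 1, against 49.9% of the 5782 bright genes on the array, and none of the 43 was past a threshold, where 0.623% of those 5782 genes were above 1.5 and 0.329% below 0.67. Their median log2 ratio was 0.093, against -0.00034 over the 5782. Counted by probe set, 53 of 64 bright ones had a ratio above 1, against 48.9% of 7921 on the array, and probe sets of the same gene are not independent of each other. The ratios of the 43 genes ran from 0.697 for OGN to 1.49 for PDGFRB, and 34 lay within 1.2-fold of 1.

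**Figure D1:**
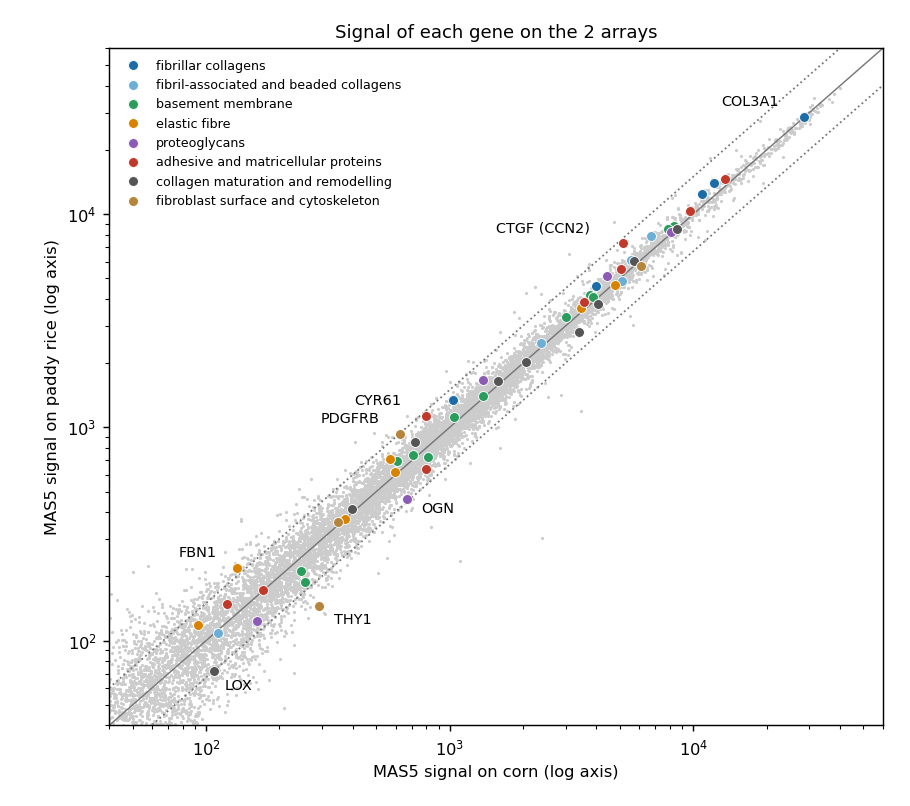
MAS5 signal of each gene on the corn array (x axis) and the paddy rice array (y axis), both on log axes that start at 40, for the 56 matrix and fibroblast genes (coloured by class) over all other named genes (grey). The solid line is a ratio of 1 and the dotted lines are 1.5 and 0.67. Most coloured points follow the solid line closely from signals of about 100 to 28562 (COL3A1), and FBN1, THY1 and LOX lie outside the dotted lines.

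**Figure D2:**
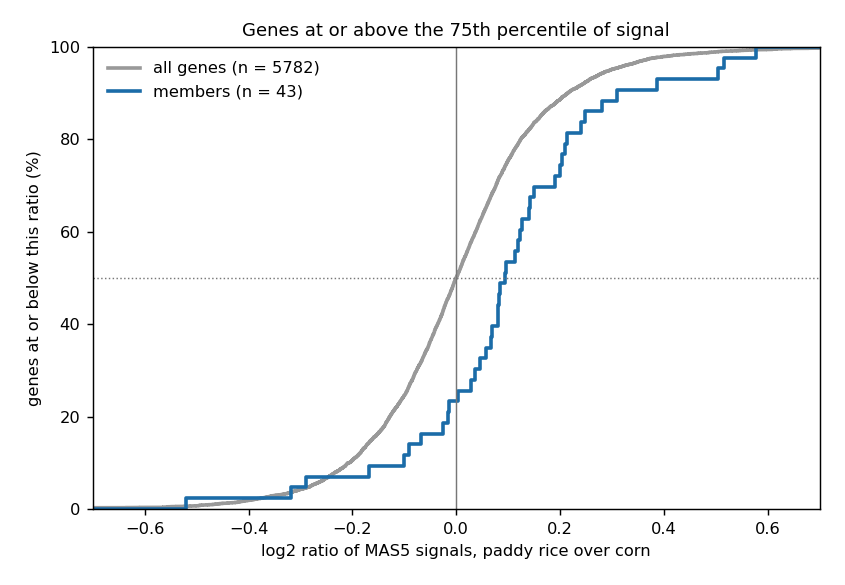
Percentage of genes (y axis) at or below each log2 ratio of paddy rice over corn (x axis) among bright genes, those in the highest range of signal. The curve of the 43 matrix and fibroblast genes (blue) crosses 50% at 0.093, to the right of the curve of all 5782 genes (grey), which crosses it near 0.

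The fibrillar collagens had the highest class median as reported here, a rank that went to the fibroblast class with bright genes only or without shared probe sets and to the elastic fibre class with the median over probe sets. The class had all 5 ratios above 1, although that of COL3A1 was marginally below 1 after loess centring. COL1A1 and COL1A2 encode the chains of collagen I, the main fibril of the gut wall. COL1A1 had a signal of 10895 on corn against 12433 on paddy rice, a ratio of 1.14. COL1A2 went from 12160 on corn to 13961 on paddy rice, a ratio of 1.15. The log2 ratios of these partner chains differed by 0.0088, and the 5 probe sets of COL1A2 that were not dim all had ratios above 1, from 1.08 to 1.25. COL5A1 and COL5A2 encode chains of collagen V, which starts fibrils and sets their width. COL5A1 went from 3992 to 4630, a ratio of 1.16, with 1.22 on its second probe set. COL5A2 went from 1030 to 1347, a ratio of 1.31, the highest of the class, with 1.11 on its second probe set. COL3A1, the collagen of thin reticular fibers, went from 28483 to 28562, a ratio of 1.00. Its 4 other probe sets that were not dim had ratios from 0.942 to 1.13, so that 4 of the 5 were above 1. Over the class, 11 of 12 bright probe sets had ratios above 1, and the median log2 ratio was 0.20.

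The collagens that decorate fibrils were less uniform. COL6A1, COL6A2 and COL6A3 encode the chains of collagen VI, a beaded filament that links fibrils to cells. COL6A1 went from 6717 to 7935, a ratio of 1.18, and COL6A2 from 5532 to 6097, a ratio of 1.10. COL6A3 went from 5098 to 4864, a ratio of 0.954, so that its log2 ratio lay 0.31 under that of COL6A1. Within genes the chains of collagen VI were not uniform either, since COL6A1 had 0.992 and COL6A2 had 0.893 on their faintest probe sets that were not dim. COL12A1, a collagen on the fibril surface, went from 2362 to 2498, a ratio of 1.06, with its 3 probe sets that were not dim between 1.01 and 1.29. COL14A1, another collagen of the fibril surface, was dim and went from 112 to 109, a ratio of 0.971. Over both collagen classes and the basement membrane, 11 of 13 collagen chains had ratios above 1.

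Of the 12 basement membrane genes, 9 had ratios above 1, and the 3 below 1 were LAMA1, LAMA2 and NID2. COL4A1 and COL4A2 encode the chains of the collagen IV network. COL4A1 went from 3759 to 4169, a ratio of 1.11, and COL4A2 from 8322 to 8823, a ratio of 1.06. Of the 5 probe sets of COL4A2 that were not dim, the 4 brightest lay between 1.00 and 1.06, and the faintest, which went from 93.4 to 187, had a ratio of 2.01. A further probe set of COL4A2, which was dim, went from 72.7 to 153, a ratio of 2.11. Both of these stood apart from the 4 brightest of the same gene. COL4A1 had 1.36 on its second probe set, of middle signal, and 1.65 on a dim one.

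LAMB1 and LAMC1 encode the beta and gamma chains shared by many laminins. LAMB1 went from 3003 to 3313, a ratio of 1.10. LAMC1 went from 7896 to 8571, a ratio of 1.09, so that the log2 ratios of these chains differed by 0.023. The alpha chains give each laminin its place, and they went apart. LAMA4, the alpha chain of vessel and muscle basement membranes, went from 607 to 699, a ratio of 1.15, the highest of the class. LAMA5, the main alpha chain under mature epithelium, went from 709 to 743, a ratio of 1.05. LAMA2, the alpha chain of muscle and nerve basement membranes, went from 244 to 212, a ratio of 0.868. LAMA1, an alpha chain prominent in the embryo, went from 256 to 187, a ratio of 0.734, the lowest of the class, with 0.886 on its second probe set. LAMA1 and LAMA2 were both of middle signal, where 8.65% of genes had a ratio as low as that of LAMA1.

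The linkers of the basement membrane had small ratios in both directions. NID1 (nidogen 1), which ties laminin to collagen IV, went from 3875 to 4103, a ratio of 1.06. Its relative NID2 went from 816 to 727, a ratio of 0.890, so that the log2 ratio of NID1 was 0.25 above that of NID2. HSPG2 (perlecan), a heparan sulfate proteoglycan, went from 1046 to 1116, a ratio of 1.07, but its 3 probe sets that were not dim ran from 0.770 to 1.11. COL18A1, the source of endostatin, went from 1368 to 1403, a ratio of 1.03. The class had a median log2 ratio of 0.083, and 14 of its 15 bright probe sets had ratios above 1.

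Among the elastic fibre genes, FBN1 and ELN had higher ratios than the fibulins. FBN1 (fibrillin 1), the backbone of microfibrils, went from 133 to 220, a ratio of 1.65, the highest of the 56 genes. It was of middle signal, where 3.96% of genes were above 1.5 and 2.02% were as high as FBN1. Its other probe sets, with signals under 50 on both arrays, were dim and had ratios of 1.22 and 0.622, and with the median over its probe sets FBN1 was at 1.22. FBN2, the fibrillin prominent in development, was dim and went from 92.9 to 119 on a probe set that reads several transcripts, a ratio of 1.28. Its second probe set, of similar signal, went from 98.6 to 72.3, a ratio of 0.734, which was its value with shared probe sets left out, and its other 4, all dim, ran from 0.147 to 12.3, so that no direction can be given for FBN2. ELN (elastin) went from 570 to 707 on its only probe set, a ratio of 1.24, and 4.60% of bright genes were as high. The remaining members were near 1 on their brightest probe sets. FBLN1 (fibulin 1) had a ratio of 1.05, FBLN5 (fibulin 5) of 0.998, EFEMP1 (fibulin 3) of 0.983 and the microfibril glycoprotein gene MFAP5 of 1.03. On second probe sets that were not dim, FBLN1 had 1.13, FBLN5 0.871 and MFAP5 1.23, the last of these close to the ratio of ELN. EFEMP1 was the lowest of the class, with a signal of 4760 against 4679 on paddy rice. The median log2 ratio of the class was 0.069.

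The proteoglycans split into members above and below 1. BGN (biglycan) went from 1366 to 1660, a ratio of 1.22, with 1.07 on its second probe set. LUM (lumican), which regulates fibril spacing, went from 4432 to 5127, a ratio of 1.16. DCN (decorin), which binds collagen fibrils and TGF-beta, went from 8108 to 8266, a ratio of 1.02. OGN (osteoglycin), of the same family of small leucine-rich proteoglycans, went the other way, from 665 to 464, a ratio of 0.697. OGN had 1 probe set, and 0.588% of bright genes had a ratio as low. VCAN (versican), a large proteoglycan that swells the matrix with hyaluronan, went from 161 to 123, a ratio of 0.762, and both of its probe sets agreed at 0.762 and 0.768. The class median log2 ratio was 0.028.

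Of the adhesive and matricellular proteins 8 of 9 had ratios above 1, led by CTGF and CYR61. These are both members of the CCN family, secreted proteins induced by TGF-beta and by the mechanically regulated YAP pathway, and CYR61 is also an immediate early gene. CTGF (CCN2) went from 5134 to 7341, a ratio of 1.43. CYR61 went from 800 to 1134, a ratio of 1.42. The log2 ratios of both differed by 0.012, each rested on 1 probe set, and neither reached 1.5. Among bright genes, 0.969% were as high as CTGF and 1.07% as high as CYR61. Other CCN family genes, counted below with TGF-beta and PDGF signalling, went the other way. WISP1 had a ratio of 0.845, WISP2 of 0.922 and WISP3 of 0.863, all of middle signal. The CCN genes named here therefore did not share a direction.

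The abundant adhesive proteins had ratios near those of the collagens. FN1 (fibronectin), which bridges integrins to collagen, went from 13487 to 14580, a ratio of 1.08, and its 4 brightest probe sets lay between 1.07 and 1.09. Its 3 probe sets of middle signal had ratios of 1.14, 1.65 and 0.758, the widest disagreement across 1 among the 56 genes when dim probe sets are left out. SPARC, a collagen-binding glycoprotein, went from 9707 to 10372, a ratio of 1.07, with its 3 probe sets between 1.06 and 1.08. POSTN (periostin) had a ratio of 1.09, with 0.855 on its second probe set, and TGFBI, which is induced by TGF-beta, had a ratio of 1.09. The thrombospondin genes were of middle signal, with a ratio of 1.22 for THBS1 and of 1.00 for THBS2. Both were read on probe sets marked as reading several transcripts. With such probe sets left out the order turned, at 1.10 for THBS1 and 1.24 for THBS2. TNC (tenascin C), a glycoprotein of remodeling tissue, was the only one below 1, going from 798 to 640, a ratio of 0.802, and 3.63% of bright genes were as low. The class median log2 ratio was 0.12.

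**Figure D3:**
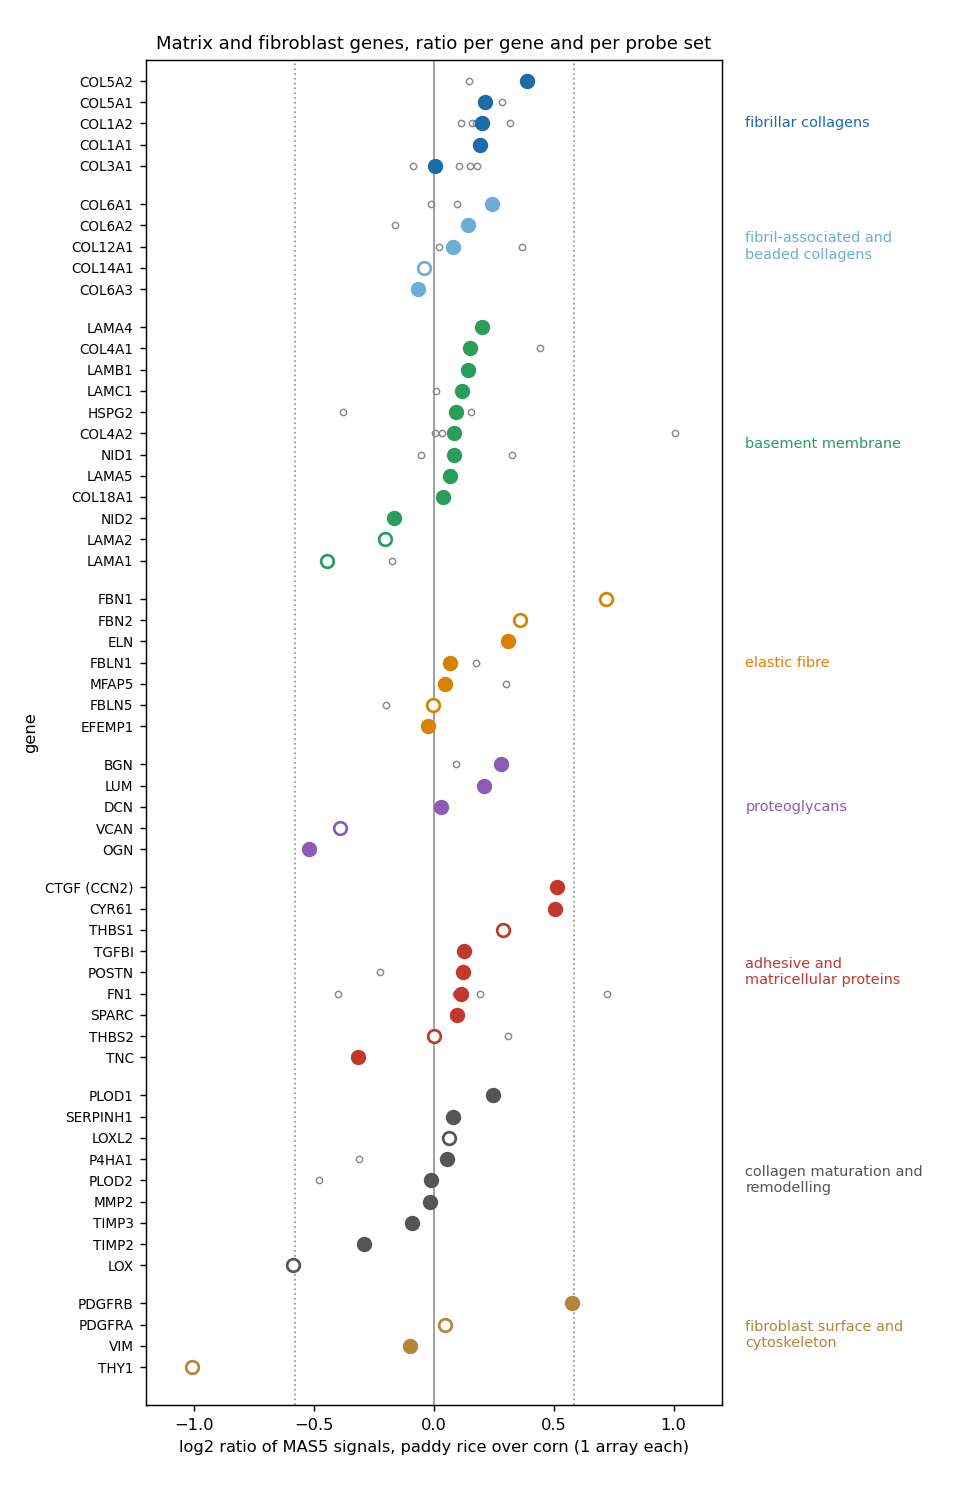
Log2 ratio of paddy rice over corn (x axis) for each of the 56 genes (y axis), by class. Large circles are the brightest probe set of the gene, filled if bright and open if not, small grey circles are its other probe sets that were not dim, and dotted lines mark 1.5 and 0.67. The fibrillar collagens lie at or to the right of 0, and the collagen maturation genes lie on both sides.

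The enzymes and inhibitors that process collagen had ratios on both sides of 1. Of 9 genes, 4 had ratios above 1 and 5 below 1, and the median log2 ratio was -0.014, which turned to 0.021 with dim genes left out. SERPINH1 (HSP47), the collagen chaperone, went from 5715 to 6045, a ratio of 1.06. P4HA1, a catalytic subunit of prolyl hydroxylase, had a ratio of 1.04, with 0.805 on its second probe set. PLOD1, a lysyl hydroxylase, went from 722 to 858, a ratio of 1.19, the highest of the class. PLOD2, the lysyl hydroxylase of the collagen ends, went from 2057 to 2038, a ratio of 0.991, with 0.718 on its second probe set. LOX (lysyl oxidase), which crosslinks collagen and elastin, went from 108 to 71.6, a ratio of 0.666. LOX had 1 probe set and was dim, and 25.4% of dim genes were below 0.67, while with the 25th percentile of signals (31.4) added on both arrays it was at 0.742. Its relative LOXL2 had a ratio of 1.04.

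The protease and inhibitors of this class lay at or below 1. MMP2 (gelatinase A) went from 8589 to 8497, a ratio of 0.989. TIMP2, which inhibits MMP2 and also takes part in its activation, went from 3410 to 2790, a ratio of 0.818, the lowest of the class apart from the dim LOX. Of bright genes, 4.57% were as low as TIMP2. TIMP3, an inhibitor bound to the matrix, went from 4047 to 3797, a ratio of 0.938.

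The genes used to mark fibroblasts did not share a direction. PDGFRB, a growth factor receptor of fibroblasts and pericytes, went from 625 to 933, a ratio of 1.49, just under the threshold and marginally above it once the arrays were centred by median or loess or quantile normalized, and 0.657% of bright genes were as high. PDGFRA, the receptor on fibroblasts and the subepithelial mesenchyme, went from 348 to 359, a ratio of 1.03. VIM (vimentin), the intermediate filament of mesenchymal cells and also of leukocytes and endothelium, went from 6118 to 5702, a ratio of 0.932. THY1, a surface glycoprotein that in the mouse marks fibroblasts, neurons and T cells, went from 292 to 145, a ratio of 0.496, the lowest of the 56 genes. THY1 had 1 probe set, marked as reading several transcripts, of middle signal, a range where 4.02% of genes were below 0.67 and 0.376% as low as THY1. The median log2 ratio of these 4 genes was -0.027.

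Markers of nerve, glia and T cells were measured on the same arrays, which do not show which cells carry THY1 in the chicken ileum. Of 10 enteric glia and neuron markers 8 were measured, 7 of them had ratios below 1, and their median log2 ratio was -0.30. S100B (glia) had a ratio of 0.588 and SNAP25 (synapse) of 0.613, both below 0.67. All 8 were not dim, a range where 1.71% of all genes were below 0.67. SNAP25 was read on a probe set marked as reading several transcripts, with 0.904 on its other probe set that was not dim. SOX10 was nearer 1 at 0.937, RET was above 1 at 1.01, and ELAVL4 lay between them. UCHL1, STMN2 and TUBB3 lay between SNAP25 and SOX10. None of the 8 was under background on both arrays, which is 44.1 on corn and 45.1 on paddy rice (the 95th percentile of probe sets whose names do not mark them as chicken genes, controls or reporters), and their summed signal was 6491 on corn against 4904 on paddy rice. The T cell markers CD3E and CD3D had ratios of 0.984 and 0.992. They belong to a leukocyte list with other T cell genes, whose 9 measured genes ran from 0.667 to 1.29. The part of nerve, glia or T cells in the ratio of THY1 was not tested.

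Genes that lie next to each other on the genome had unequal ratios in part. In the RefSeq gene table of assembly GRCg7b, 4 pairs of the 56 genes are adjacent among protein-coding genes. COL4A1 and COL4A2 had ratios of 1.11 and 1.06, and COL6A1 and COL6A2 of 1.18 and 1.10. DCN and LUM had ratios of 1.02 and 1.16, and COL3A1 and COL5A2 of 1.00 and 1.31.

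Matrix genes outside the 56 had medians of like size over all measured genes, but that of the structural genes lay near 0 once dim genes were left out. Of 65 other structural matrix genes 50 were measured, 28 had ratios above 1, 5 were above 1.5 and 4 below 0.67, and the median log2 ratio was 0.065. Of these, 27 were not dim, with a median log2 ratio of 0.0090, and MFAP2 alone was past a threshold. MFAP2 encodes a microfibril glycoprotein that binds fibrillin, and went from 220 to 344, a ratio of 1.56. Of the bright ones, 5 of 12 had ratios above 1, with a median log2 ratio of -0.020. Of 45 other genes of collagen modification and remodelling 35 were measured, 22 had ratios above 1, 4 were above 1.5 and 4 below 0.67, and the median log2 ratio was 0.078. Of the bright ones, 10 of 12 had ratios above 1, with a median log2 ratio of 0.12. The stromelysin gene MMP10 went from 429 to 654, a ratio of 1.52, and MMP16, a membrane-bound metalloproteinase gene, went from 153 to 98.4, a ratio of 0.644. These were the only ones of that list past a threshold and not dim. The counts over all measured genes of each list stand beside 8.27% of all named genes above 1.5 and 8.57% below 0.67. Of all genes that were not dim, 1.87% were above 1.5 and 1.71% below 0.67.

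Apart from nerve and glia, the marker lists of the other cell types of the gut wall had medians near 0 on the log2 scale. Their shares of ratios above 1 were less alike, against 49.5% of all named genes. Above 1 were 9 of 12 smooth muscle, 5 of 11 epithelium, 1 of 9 leukocyte and 5 of 13 endothelium and pericyte markers. A share well off that of all genes was therefore not particular to the matrix genes. Smooth muscle markers had a median log2 ratio of 0.011 and a summed signal of 127167 on corn against 128509 on paddy rice, with MYH11 (smooth muscle myosin) at 1.00 and DES (desmin) at 1.05. ACTA2 was the only one past a threshold, as a dim gene that went from 49.6 to 74.7, a ratio of 1.51. Epithelium markers had a median log2 ratio of -0.023 and ran from 0.902 to 1.12, with a summed signal of 172325 against 171623. Leukocyte markers, of which 9 of 11 were measured, had a median of -0.028 and a summed signal of 55795 and 54567, and CD79B (B cells) was dim and below 0.67 at 0.667. All 13 markers of endothelium and pericytes were measured, with a median of -0.048 and a summed signal of 12867 and 12328. PECAM1 (0.595) and TIE1 (0.651) were below 0.67 and ESAM (1.51) was above 1.5. Of the others, RGS5 of pericytes was at 0.969, CSPG4 at 0.713 and MCAM at 1.38. No marker on these lists was under background on both arrays. The difference between these medians and those of the matrix classes was not tested, since each diet has 1 array.

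**Figure D4:**
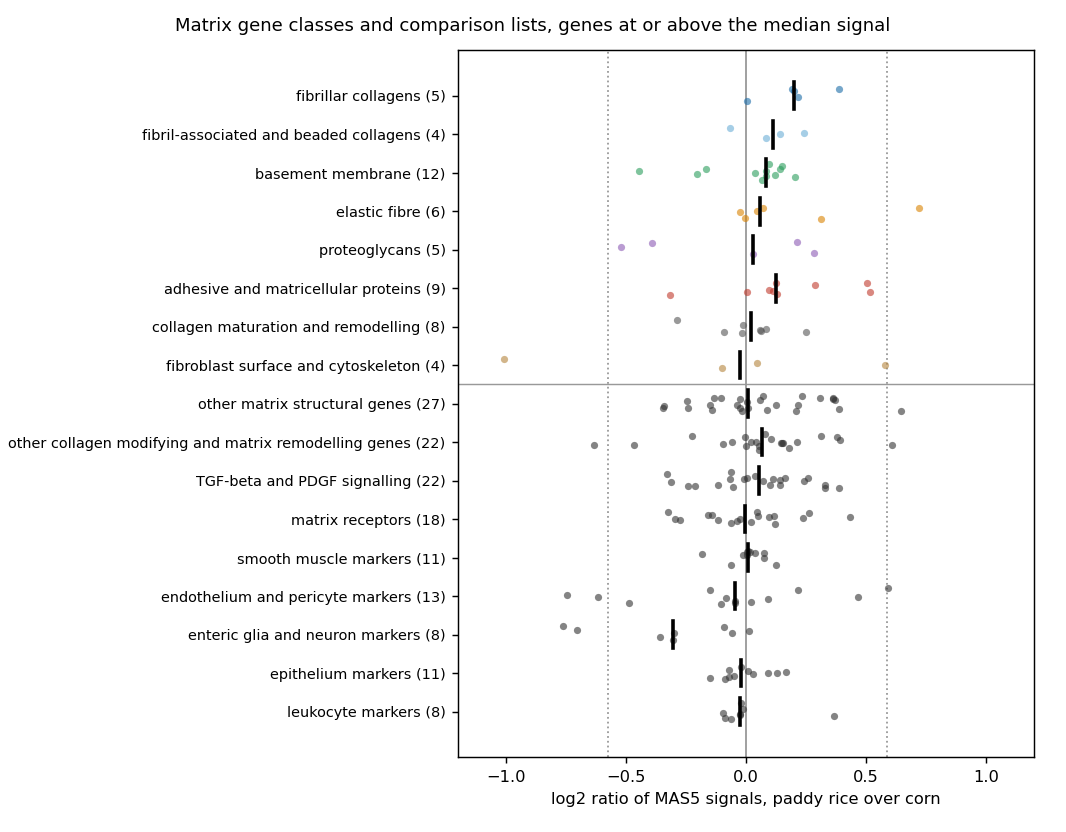
Log2 ratio of paddy rice over corn (x axis) for genes that were not dim (at or above the median signal), by class of matrix gene (coloured) and by comparison list (dark), with the number of genes shown in brackets. Black bars are medians, which run from 0.20 for the fibrillar collagens to -0.30 for the enteric glia and neuron markers, and dotted lines mark 1.5 and 0.67.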

How the data were processed

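Total RNA of ileum, pooled from 3 birds for each diet, was hybridized to the Affymetrix GeneChip Chicken Genome Array. The authors normalized the raw data with MAS5, and the deposited values are linear signal intensities per probe set, without detection calls or a filter on low signals. Both arrays had a trimmed mean (2% off each end) of 500.1. Gene order along chromosomes was taken from the RefSeq table, and no coordinates are printed.

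Of 37693 chicken probe sets, 27166 had 1 gene in the platform annotation, 177 had several and 10350 had none. Symbols were updated through RefSeq (GRCg7b), which held 26851. Background was the 95th percentile of 689 probe sets whose names do not mark them as chicken genes, controls or reporters. Aliases that led to another gene (MMP11, KRT20) were left out. The 56 genes and the lists were chosen with earlier results of these data known, so no list is independent evidence of its direction.

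Named with their values are the genes past 1.5 or 0.67, the highest and lowest of each class, the chains of 1 molecule, and genes whose probe sets disagree across 1. Other members were also given. Percentages of genes as high or low are taken within the signal range of the gene, and the ranges are dim (below the median), middle, and bright (the 75th percentile and above). No test between diets was possible. The code for counts and medians was checked on simulated data, where folds of 2 and 0.5 were put into the corn signals. The noise added was small and the same at every signal, so this check says nothing of the precision of the counts. The alternatives were signal filters at the median and at the 75th percentile, centring of log2 ratios by the median or by loess (fraction 0.3), quantile normalization, an offset of 31.4 (the 25th percentile) on every signal, leaving out probe sets that read several transcripts, the median over the probe sets of a gene, and thresholds of 2 and 0.5. Probe sets that read several transcripts are called shared here, and each one used had 1 gene in the platform annotation. The genes THY1, ELN, NID2, SPARC, TIMP3 and VIM had only such probe sets. Work was done in Python 3.11.15 with pandas 2.3.3, numpy 2.4.6, statsmodels 0.14.6, scipy 1.17.1 and matplotlib 3.10.9.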

Additional observations from a re-analysis of the deposited data

How the results depend on the processing

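The direction of the median over the 56 genes held in all 8 settings in which it was recomputed, while the few genes past a threshold depended on the setting. All settings reuse the same 2 arrays and largely the same genes, and the offset cannot move a ratio across 1. That the direction held is therefore no independent support for it. Of 72 medians recomputed over all genes and by class, 69 moved by less than the SD of 0.27 between probe sets of a gene that were not dim, divided by the square root of the number of genes. The other 3 were the fibroblast class at 0.24 with bright genes only and at 0.31 without shared probe sets, both of which leave out THY1, and the elastic fibre class at 0.18 with the median over probe sets. In these 3 the fibrillar collagens, at 0.20, 0.19 and 0.17 in that order, no longer had the highest class median. In 4 cases a class median lay on the other side of 0, and the collagen maturation class, at -0.014, was at 0.021 with dim genes left out and without shared probe sets. For several classes the SD over that square root was larger than the median itself. The count of 69 therefore does not show that the class medians were stable. The number of genes above 1.5, 1 as reported, was 2 with median centring, quantile normalization or loess centring, which adds PDGFRB, 4 with the median over probe sets, and 0 with bright genes only or at 2-fold. The number below 0.67, 2 as reported, was 1 with dim genes left out, with median or loess centring, with the offset on every signal (LOX then at 0.742), without shared probe sets (LOX, since the only probe set of THY1 is a shared one) or at 0.5-fold (THY1), 0 with bright genes only, and 4 with the median over probe sets. That last setting counts dim probe sets like bright ones: FBN1 was at 1.22, PDGFRB at 2.43, TIMP2 at 1.86, LAMA4 at 1.68, COL14A1 at 1.73, COL6A3 at 0.388 and LAMA1 at 0.554. Of the 144 probe sets of the 56 genes, 48 were dim, and 26 of these were past a threshold. With 1 array per diet, a difference between pools of birds cannot be told apart from an effect of the diet.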

Other observations

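Genes that signal to fibroblasts and genes by which cells hold the matrix stayed between the thresholds, with few exceptions at low signal. So did 10817 of the 13008 named genes on the array. Of 28 genes of TGF-beta and PDGF signalling, which drive matrix production, 25 were measured, and none was above 1.5 or below 0.67. Of these 25, 22 were not dim, a range where only 1.87% of all genes were above 1.5 and 1.71% below 0.67. Ratios above 1 were seen for 14, and the median log2 ratio was 0.038, with a range of ratios from 0.768 to 1.31. Of the bright ones, 6 of 12 had ratios above 1. Of 25 matrix receptors, such as integrins, syndecans and dystroglycan, 22 were measured and 10 had ratios above 1, with a median log2 ratio of -0.033. ITGB6, an epithelial integrin chain, went from 92.8 to 60.2, a ratio of 0.648, and MRC2, an endocytic collagen receptor of fibroblasts, went from 57.8 to 7.36, a ratio of 0.127. Both were dim, a range in which 25.4% of genes were below 0.67, and no receptor was above 1.5. Over all named genes, 8.57% were below 0.67 and 8.27% above 1.5.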
